A study of Homo sapiens with 6 samples.

Results

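FLRT1, FLRT2 and FLRT3 encode the fibronectin leucine-rich transmembrane proteins, a family of cell-surface adhesion molecules. They are described here together with genes for their binding partners, the latrophilins ADGRL1, ADGRL2 and ADGRL3 and the netrin receptors UNC5B and UNC5D. The 8 genes were taken by symbol, and each matched an Ensembl gene ID among the 60499 IDs in the deposited tables. All 8 were expressed well enough to be tested. The group was chosen by protein family and binding partners with the measured RNA levels of these wells, LN-521 against the mixed coating, in view, so the differences of these 8 genes are given as descriptions, without p-values.

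The outer part of an FLRT protein binds the olfactomedin domain of a latrophilin, an adhesion G protein-coupled receptor, on a neighbouring cell. FLRT proteins also bind UNC5 receptors, which mediate repulsion from netrins and from shed FLRT ectodomains. In embryos FLRT3 is known for its role in basement membrane integrity and cell movement around gastrulation, and for promoting signalling through FGF receptors.

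The RNA came from H1, an established line of human embryonic stem cells, kept in NutriStem medium that was renewed every day. Wells of the LN-521 group were coated with laminin-521 alone, and wells of the LN-521+LN-221 group (the mixed coating) with laminin-521 and laminin-221, so cells of both groups grew on laminin-521. Each group had 3 wells, and total RNA was taken after 4 days. All wells hold 1 cell line, so the spread between libraries is a spread between wells.

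Libraries held 20606450 to 26836686 counts, all in 1 sequencing batch according to the sample sheet. Markers of undifferentiated pluripotent cells were abundant: POU5F1, NANOG, SOX2, LIN28A, DPPA4, DNMT3B, TDGF1, PODXL, L1TD1 and ZFP42 had mean levels between 44.9 and 754 TPM (a library's share of transcripts, corrected for transcript length). One library, LN-521 replicate 1, stood apart from the other wells of its coating, at 31.1 on the second principal component against -16 and -8.44. Over the whole table, 446 of the 17608 genes tested (2.53%) had an adjusted p-value under 0.05 in edgeR's quasi-likelihood test. That number depended on single libraries. It was 1179, 635 and 201 without LN-521 replicates 1, 2 and 3. Without LN-521+LN-221 replicates 1, 2 and 3 it was 290, 198 and 194. Of all genes tested, 1.40% were called higher on LN-521+LN-221 and 1.14% lower, and the median log2 fold change was -0.00114.

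The stretch where FLRT3 coding sequence is closest to both of its relatives is shown to make visible how far apart the 3 genes are for read assignment. These are 90 bases of the GENCODE release 29 coding sequences, numbered from the A of the start codon, at 1698 to 1787 in FLRT3, 1773 to 1862 in FLRT1 and 1737 to 1826 in FLRT2. Capitals mark bases that differ from FLRT3.
FLRT3: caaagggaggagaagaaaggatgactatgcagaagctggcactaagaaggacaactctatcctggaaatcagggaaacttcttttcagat
FLRT1: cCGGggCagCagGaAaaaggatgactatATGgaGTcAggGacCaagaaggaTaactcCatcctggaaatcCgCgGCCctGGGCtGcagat
FLRT2: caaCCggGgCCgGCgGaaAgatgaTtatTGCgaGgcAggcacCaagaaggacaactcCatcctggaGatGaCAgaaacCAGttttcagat
Even here FLRT1 differed from FLRT3 at 27 bases and FLRT2 at 24, and the longest identical runs were 13 and 14 bases. Over the whole coding sequence FLRT3 was 63.4% identical to FLRT1 and 63.1% identical to FLRT2. The latrophilin genes were 65.8% to 69.4% identical to each other, and UNC5B was 66.6% identical to UNC5D. Of the 5187 different 31-base words in FLRT3 transcripts, 2 occurred in transcripts of any other gene, and its deposited counts were whole numbers in all 6 libraries. FLRT1 was the exception among the FLRT genes: 23.3% of its words were shared with other genes, and its counts were not whole in 5 libraries, so its level is uncertain.

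FLRT3 (ENSG00000125848) lies on chromosome 20 at 14322988 to 14337616, on the minus strand (GRCh38, GENCODE release 29), inside the gene MACROD2 on the opposite strand. No exon of MACROD2 overlapped an exon of FLRT3. FLRT1 (ENSG00000126500, chromosome 11, 64103188 to 64119173) lies inside MACROD1 in the same manner, without shared exonic bases. An antisense gene overlapped 13.6% of the exonic bases of FLRT1, and another gene on the strand of FLRT1 overlapped 11.6%. FLRT2 (ENSG00000185070, chromosome 14, 85530144 to 85654426) overlapped no other gene.

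ADGRL2, ADGRL3 and UNC5D are the longest of the 8 genes in the genome. ADGRL3 spans chromosome 4 from 61201258 to 62078335 (plus strand, 18 annotated transcripts) and ADGRL2 chromosome 1 from 81306160 to 81992436 (plus strand, 22 transcripts). ADGRL1 lies on chromosome 19 at 14147743 to 14206187 (minus strand, 8 transcripts) and UNC5B on chromosome 10 at 71212570 to 71302864 (plus strand, 2 transcripts). Antisense genes overlapped 5.57% of the exonic bases of ADGRL1 and 1.09% of those of ADGRL3, and no exonic overlap was annotated for ADGRL2, UNC5B or UNC5D. Words of 31 bases shared with other genes made up 5.82% of ADGRL1, 0.694% of ADGRL3, 0.249% of UNC5B, 0.0737% of ADGRL2 and 0% of UNC5D. Where strand was not used in counting, reads of overlapping antisense genes cannot be told apart from those of FLRT1, ADGRL1 and ADGRL3. The same would hold for unspliced RNA of MACROD2 and MACROD1, which span FLRT3 and FLRT1 on the opposite strand.

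FLRT3 was the 1 gene of the 8 called higher on the mixed coating, where 1.40% of all genes tested were called higher, and nothing is read from that count. It had 2.97, 2.44 and 1.91 TPM in the LN-521 wells and 6.02, 6.35 and 6.03 TPM in the LN-521+LN-221 wells. Every well of the mixed coating was above every well of LN-521. In counts the wells held 243, 276 and 197 against 445, 503 and 547. In CPM (counts scaled to library size, not corrected for length) the level went from 9.62 ± 1.49 to 22.4 ± 0.853 (SD, n = 3 each). The edgeR log2 fold change was 1.22 ± 0.107 (SE), a 2.33-fold difference, and FLRT3 ranked at 34 by size among the 246 genes called higher. Without LN-521 replicate 1 the log2 fold change was 1.29, and without LN-521 replicate 3 it was 1.09. In bulk RNA, more cells that make a transcript and more of it in each cell cannot be told apart.

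FLRT2 had 1.33, 0.71 and 0.89 TPM on LN-521 and 1.86, 1.16 and 1.47 TPM on the mixed coating. These ranges overlapped, while in CPM the groups were just apart, at 4.50 ± 0.367 and 5.42 ± 0.567 (SD, n = 3 each). Its log2 fold change was 0.27 ± 0.143 (SE), and it was not among the genes called. FLRT1 was close to the limit of detection, with 41, 23 and 34 counts on LN-521 and 23, 20 and 31 on the mixed coating. Its log2 fold change was -0.26 ± 0.300 (SE), an error larger than the estimate, so no difference was detectable for FLRT1 at this depth.

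The 3 genes added up to 4.71, 3.32 and 3.08 TPM on LN-521 and 8.13, 7.7 and 7.77 TPM on the mixed coating. FLRT3 made up the largest part of this sum in every well, 62.0% to 73.5% on LN-521 and 74.1% to 82.5% on the mixed coating. FLRT2 followed with 15.1% to 28.9%, and FLRT1 with 2.47% to 9.09%.

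**Figure D1:**
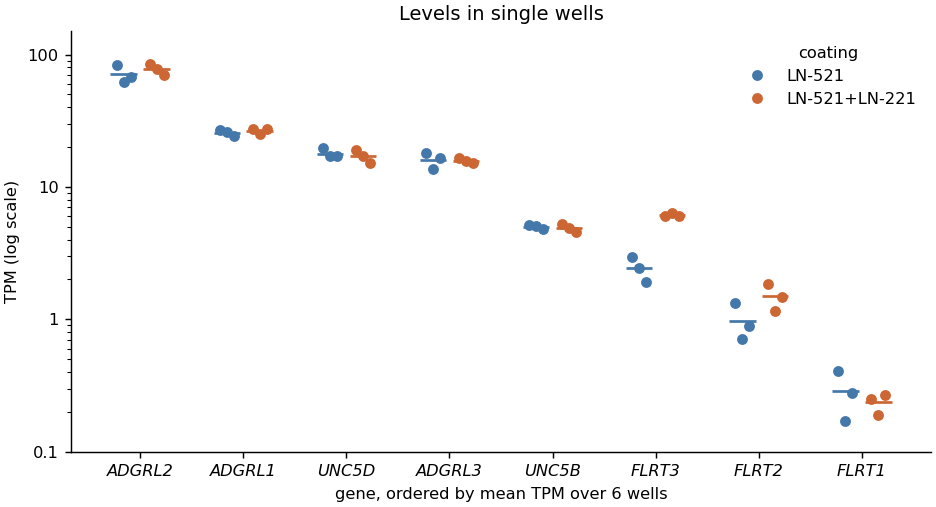
TPM of the 8 genes on a log axis in each of the 6 wells, blue for LN-521 and orange for LN-521+LN-221, with a bar at the mean of each coating's 3 wells. The orange FLRT3 points lie at 6.02 to 6.35 TPM, above the blue ones at 1.91 to 2.97, while the coatings overlap for the other 7 genes.

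The 250 bases before the RefSeq start of FLRT3 and before the first listed start of FLRT2 are shown as examples of how start regions within the family varied in CpG content, a C followed by a G, which the choice of genes did not use. Both come from RefSeq on GRCh38.p14, 5′ to 3′ on the gene's own strand, with the CpG bases in capitals. FLRT3 is at chr20:14337613-14337862 on the minus strand and FLRT2 at chr14:85529894-85530143 on the plus strand.
FLRT3: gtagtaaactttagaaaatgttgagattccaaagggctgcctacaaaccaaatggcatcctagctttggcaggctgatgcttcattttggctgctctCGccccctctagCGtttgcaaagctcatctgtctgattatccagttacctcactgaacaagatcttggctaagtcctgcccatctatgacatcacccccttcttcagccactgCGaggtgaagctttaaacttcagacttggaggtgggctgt
FLRT2: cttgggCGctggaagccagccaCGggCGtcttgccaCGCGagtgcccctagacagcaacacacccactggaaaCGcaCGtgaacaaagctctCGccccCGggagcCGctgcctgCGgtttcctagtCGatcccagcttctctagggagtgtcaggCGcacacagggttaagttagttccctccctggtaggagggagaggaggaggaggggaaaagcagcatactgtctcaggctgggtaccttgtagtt
The FLRT3 window held 3 CpG and the FLRT2 window shown 13, where the median over 35116 windows of this length was 11. Fewer CpG than in FLRT3 were found in 22.9% of all windows, and fewer than in that FLRT2 window in 53.4%. Windows at the other FLRT2 starts held 21 and 15 CpG, and those listed for FLRT1 42 and 23. The FLRT1 windows begin at 64035681 and 64036432 on chromosome 11. They lie far before the GENCODE release 29 gene described above, which starts at 64103188. The ADGRL3 windows held 23 and 16, and the 8 ADGRL2 windows held 1 to 23, among them 1 with 1 CpG and 1 with 4, so a low number was not limited to FLRT3. In all, 5 of the 8 genes had a window in the table, 16 windows together. The FLRT3 window held no match on either strand to TATAAA (present in 10.7% of all windows), CCAAT (32%) or GGGCGG (42.6%). No methylation or binding was measured in these wells.

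Each latrophilin had more RNA by TPM than the 3 FLRT genes together in every well, and none of the 3 was called between the coatings. ADGRL2 (ENSG00000117114) was the highest of the 8 genes, with 82.8, 62.4 and 67.1 TPM on LN-521 and 84.5, 77.3 and 69.9 TPM on the mixed coating. The ranges overlapped, and the log2 fold change was 0.08 ± 0.0579 (SE). ADGRL1 (ENSG00000072071) had 27.1, 26.1 and 24.1 TPM against 27.3, 25.1 and 27.6 TPM, with overlapping ranges and a log2 fold change of 0.07 ± 0.0677 (SE).

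ADGRL3 (ENSG00000150471), the latrophilin best known for high-affinity binding of FLRT3, had lower CPM values in the mixed-coating wells. The LN-521 wells averaged 102.5 ± 5.39 CPM and the mixed coating 93.4 ± 3.47 CPM (SD, n = 3 each), without overlap, and its log2 fold change was -0.13 ± 0.0595 (SE). In TPM, at 18.2, 13.8 and 16.4 against 16.6, 15.8 and 15.1, the ranges overlapped, and ADGRL3 was not among the genes called. ADGRL2 made up 61.0% to 65.8% of the summed latrophilin TPM, ADGRL1 21.2% to 25.5% and ADGRL3 12.95% to 15.3%.

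The summed latrophilin level was 102.3 to 128.0 TPM on LN-521 and 112.6 to 128.5 TPM on the mixed coating. Per unit of FLRT RNA this was 27.2, 30.8 and 34.9 in the LN-521 wells and 15.8, 15.4 and 14.5 in the wells with laminin-221. The ratio did not overlap between the coatings, and it moved with FLRT3, which dominates its denominator.

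UNC5D (ENSG00000156687, chromosome 8), a receptor that FLRT2 is known to bind strongly, had 19.6, 17.0 and 17.0 TPM on LN-521 and 18.9, 17.2 and 15.2 TPM on the mixed coating. UNC5B (ENSG00000107731), known as a partner of FLRT3, had 5.18, 5.09 and 4.80 TPM against 5.21, 4.89 and 4.56 TPM. Both genes overlapped between the coatings, with log2 fold changes of -0.07 ± 0.0581 (SE) for UNC5D and -0.08 ± 0.0733 (SE) for UNC5B. UNC5D made up 76.95% to 79.1% of their sum, with little variation between wells.

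By mean TPM over the 6 wells the order was ADGRL2 (74.0), ADGRL1 (26.2), UNC5D (17.5), ADGRL3 (16.0), UNC5B (4.96), FLRT3 (4.29), FLRT2 (1.24) and FLRT1 (0.262). UNC5D and ADGRL3 had overlapping ranges, though UNC5D was the higher of the pair in all 6 wells. UNC5B and FLRT3 were the neighbours whose order depended on the coating. FLRT3 had 0.573, 0.479 and 0.398 times the UNC5B level on LN-521, and 1.16, 1.30 and 1.32 times on LN-521+LN-221. The ranges of the other neighbours did not overlap. Among all genes tested, ADGRL2 stood at the 94.3 percentile of mean TPM, FLRT3 at 43.0 and FLRT1 at 4.92.

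Of the 8 genes, 1 was called higher (FLRT3) and 0 lower in the edgeR test, where 2 had an unadjusted p-value under 0.05 (DESeq2 also called 1), beside 2.53% of all genes called. As the coatings' difference was in view when the genes were chosen, nothing is read from this count. In 3 of the 8 genes (FLRT2, FLRT3 and ADGRL3) the CPM of the coatings did not overlap, against 19.9% of all genes tested. With limma on log2(TPM + 0.1), and on log2(TPM + 1) without a filter, 0 were called (2 and 1 at an unadjusted p-value under 0.05). The 7 genes that were not called had log2 fold changes between -0.26 and 0.27.

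**Figure D2:**
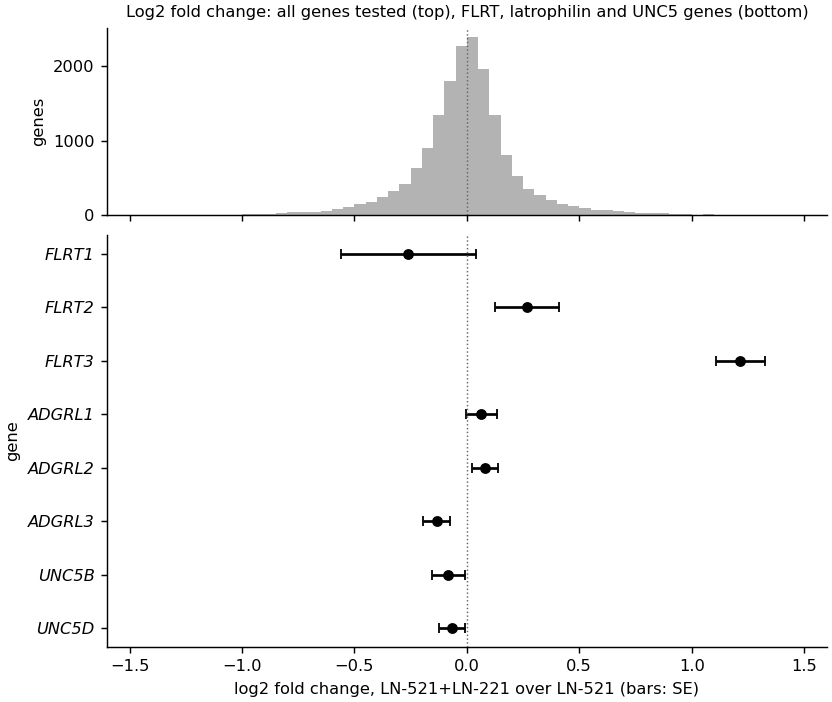
Log2 fold change of LN-521+LN-221 over LN-521, as a histogram of all genes tested (top, 36 genes beyond ±1.6 not drawn) and for the 8 genes with SE bars (bottom). FLRT3 lies at 1.22, and the other 7 genes lie between -0.26 and 0.27, where most genes of the table lie.

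The genes with a profile most like that of FLRT3 were looked for among 16255 other tested genes with a symbol. Likeness was the Euclidean distance over the 6 wells between log2 CPM values centred on each gene's own mean. The nearest were CYP26A1, which encodes an enzyme that breaks down retinoic acid (distance 0.167), SOAT1, for a cholesterol-esterifying enzyme (0.207), IRX1, for an Iroquois homeobox transcription factor (0.231), CDH9, for a cadherin (0.241), and FRZB, for a secreted Wnt inhibitor (0.264).

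Each of the 5 was higher on the mixed coating without overlap between wells. CYP26A1 ranged from 22.4 to 41.9 TPM on LN-521 and from 69.7 to 72.1 TPM on the mixed coating. IRX1 ranged from 5.80 to 10.6 TPM and from 20.3 to 20.5 TPM, and FRZB from 3.05 to 5.22 TPM and from 9.89 to 10.5 TPM. SOAT1 and CDH9 were lower in level, at most 4.73 and 3.63 TPM. The log2 fold changes were 1.10 to 1.35, as a profile near that of FLRT3 requires, so these 5 differences are no separate result. The same holds for the wells they share as lowest and highest.

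**Figure D3:**
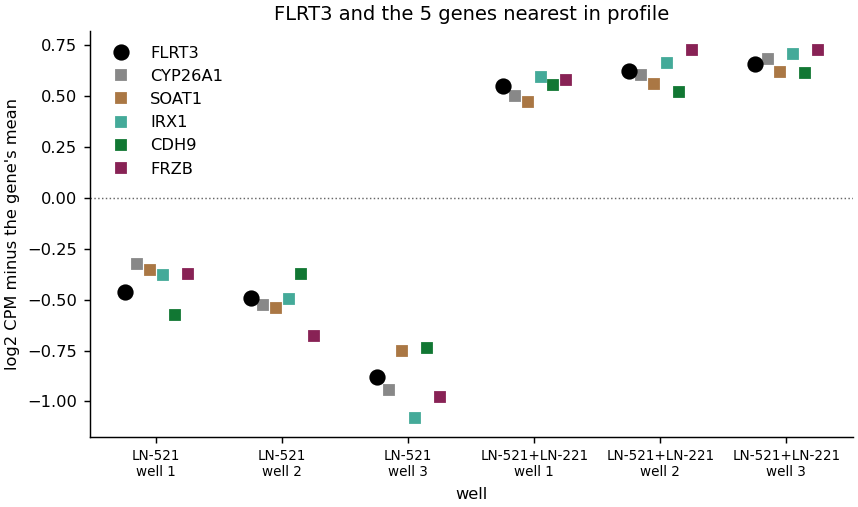
Log2 CPM minus the gene's own mean in each well for FLRT3 (black circles) and the 5 genes nearest to it (coloured squares). All 6 genes lie below 0 in the LN-521 wells, lowest in replicate 3 (-0.88 for FLRT3), and above 0 in the LN-521+LN-221 wells (0.55 to 0.66 for FLRT3).

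Further genes of the pathway were taken from 6 lists of 87 genes, of which 86 matched an ID and 72 were tested. Of these, 4 were called higher and 2 lower (8.33% of those tested, against 2.53% of all genes). As the lists were chosen with results of these wells known, nothing is read from that share. None of these 6 genes was called by any of the limma fits on TPM that tested it.

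Among netrin and UNC5 relatives, 1 of 11 genes tested was lower, 0 were higher, and the median log2 fold change was -0.04. DCC (ENSG00000187323), a netrin receptor for attraction, fell by 1.18 ± 0.277 on the log2 scale (SE), with an edgeR adjusted p-value of 0.0277. Its TPM did not show this, at 0.49, 0.18 and 0.25 on LN-521 and 0.38, 0.35 and 0.14 on the mixed coating. The call was lost without LN-521 replicate 2 (-1.05) or 3 (-1.29), without LN-521+LN-221 replicate 2 (-1.19) or 3 (-1.03), and with DESeq2.

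Teneurins are the other main ligands of latrophilins. TENM4 (ENSG00000149256) had 3.33, 2.83 and 2.24 TPM on LN-521 and 6.05, 3.58 and 4.35 TPM on the mixed coating. It rose by 0.44 ± 0.103 on the log2 scale (SE), with an edgeR adjusted p-value of 0.0263, the 1 call among 4 genes tested in its list (median 0.03). The call was lost without LN-521 replicate 3 (0.363) and without LN-521+LN-221 replicate 2 (0.428) or 3 (0.399). TENM3, named after its values were seen as the highest teneurin at 34.5 TPM on average, was not called (-0.13 ± 0.0536, SE, with an edgeR adjusted p-value of 0.273).

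Of the 6 FGF receptors and RND GTPases tested, which include known intracellular and membrane partners of FLRT proteins, 1 was higher and 0 lower (median 0.09). FGFR3 (ENSG00000068078) went from 19.0 ± 2.73 to 23.9 ± 0.375 TPM (SD, n = 3 each), and its log2 fold change was 0.33 ± 0.0781 (SE), with an edgeR adjusted p-value of 0.0322. When each of the 6 libraries was omitted in turn, it was called in 1 case, without LN-521 replicate 2 (0.43). The values in the other 5 were 0.296 and 0.26 without LN-521 replicates 1 and 3, and 0.366, 0.342 and 0.27 without LN-521+LN-221 replicates 1, 2 and 3.

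Of 30 other leucine-rich repeat surface proteins tested, 1 was higher and 1 lower (median -0.01). LRIG1 (ENSG00000144749), which encodes a negative regulator of growth factor receptors, went from 49.8 ± 0.944 to 59.2 ± 3.14 TPM (SD, n = 3 each), and its log2 fold change was 0.28 ± 0.0611 (SE), with an edgeR adjusted p-value of 0.0153. SLITRK1 (ENSG00000178235), for a synaptic adhesion protein, was low and fell from 0.593 ± 0.0289 to 0.353 ± 0.0351 TPM (SD, n = 3 each). The log2 fold change was -0.79 ± 0.173 (SE), with an edgeR adjusted p-value of 0.0173. LRIG1 was not called without LN-521 replicate 3 (0.271) or LN-521+LN-221 replicate 2 (0.296) or 3 (0.248). SLITRK1 was not called without LN-521 replicate 3 (-0.759) or LN-521+LN-221 replicate 1 (-0.755) or 3 (-0.755).

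Of 19 other adhesion G protein-coupled receptors tested, ADGRV1 (ENSG00000164199), for a very large receptor of sensory cells, was the 1 called, and 0 were lower (median 0.03). Its log2 fold change was 0.31 ± 0.0529 (SE), with an edgeR adjusted p-value of 0.00252. It was called whichever library was left out, but in none of the 4 limma fits on TPM (log2 fold changes 0.276 to 0.321, adjusted p-values 0.424 to 0.766). Its TPM overlapped, at 25.6, 19.2 and 19.6 on LN-521 and 27.5, 24.5 and 27.9 on the mixed coating.

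The 2 host genes were not called. MACROD2, around FLRT3, was at 2.63 ± 0.621 and 2.95 ± 0.442 TPM (SD, n = 3 each), and its log2 fold change was 0.06 (SE 0.16), with an edgeR adjusted p-value of 0.907. MACROD1, around FLRT1, was at 20.4 ± 4.95 and 18.8 ± 3.58 TPM (SD, n = 3 each), and its log2 fold change was -0.08 ± 0.109 (SE), with an edgeR adjusted p-value of 0.794. The signs of both are not stable: MACROD2 was -0.114 without LN-521+LN-221 replicate 1 and MACROD1 0.0349 without LN-521 replicate 2.

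**Figure D4:**
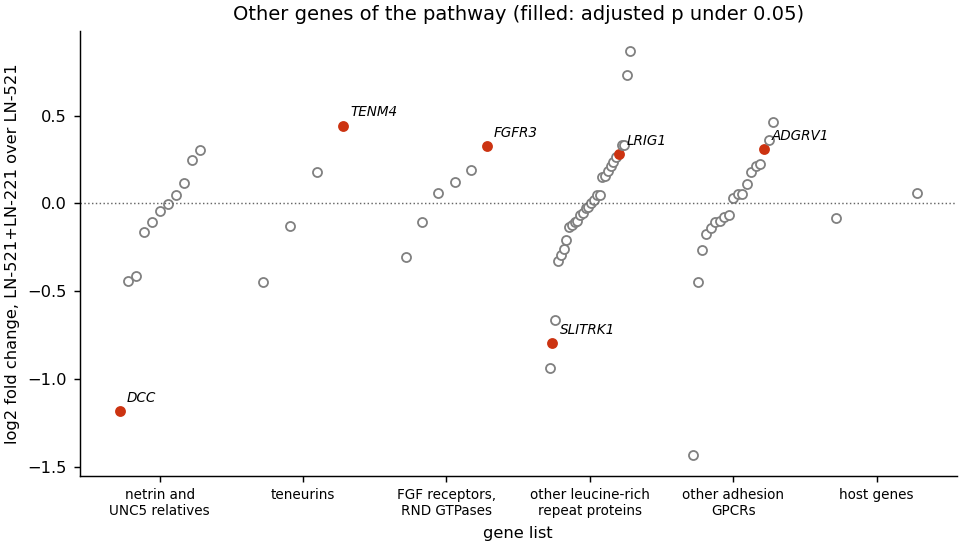
Log2 fold change of LN-521+LN-221 over LN-521 for the 72 tested genes of the 6 lists, 1 point a gene, sorted within each list. Filled points with a name are the 6 genes with an adjusted p-value under 0.05, from DCC at -1.18 to TENM4 at 0.44.

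Of 6 marker lists, chosen with results of these wells known, the summed levels of neural ectoderm and endoderm markers did not overlap between the coatings, and those of the other 4 lists did. The summed TPM of 7 neural ectoderm markers was 106.9 to 128.7 on LN-521 and 172.9 to 175.7 on the mixed coating, with 3 of 6 genes tested called higher (OTX2, HESX1 and ZIC1) and 0 lower, beside 1.40% and 1.14% of all genes tested. ZIC1 was called in 0 of the 6 fits that left out a library, with log2 fold changes of 1.2 to 1.5, and it was not called with library size alone (1.35) or DESeq2 (1.37). LHX5 had the largest log2 fold change of this list (1.75, from 5.76 to 19.6 TPM on average) but was not called (edgeR adjusted p = 0.0865). NES was nearly level, at 60.5 and 64.6 TPM on average (log2 fold change 0.06). PAX6 and SOX1, which define neural progenitors, were near 0, at up to 0.34 and 0.12 TPM. Of the 10 pluripotent markers, 1 was called higher (LIN28A) and 3 lower (POU5F1, NANOG and TDGF1, whose counts were not whole in 6, 6 and 5 libraries, so their levels are uncertain too), and their sum was 3265 to 3666 TPM against 3193 to 3441 TPM. LIN28A was not called without LN-521 replicate 3 (0.219) or LN-521+LN-221 replicate 2 (0.224) or 3 (0.235), and POU5F1 was not called without LN-521+LN-221 replicate 2 (-0.352).

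The 6 endoderm markers summed to 2.46 to 5.44 TPM and 5.77 to 6.74 TPM, with 1 of 2 tested called higher (HHEX). HHEX made up most of that sum, with means of 2.71 TPM on LN-521 and 5.35 TPM on the mixed coating. The gap between the coatings therefore came from 1 gene. CXCR4, also tested, averaged 0.97 and 0.83 TPM and was not called (log2 fold change -0.27, edgeR adjusted p = 0.715). SOX17 and FOXA2 averaged 0.02 TPM or less. The 6 mesoderm markers summed to 1.99 to 2.51 TPM and 2.26 to 2.65 TPM, with 0 of 1 tested called. The 8 trophoblast and amnion markers summed to 15.0 to 17.8 TPM and 14.2 to 16.3 TPM, with 0 of 4 tested called. The 7 fibroblast markers summed to 128.3 to 141.2 TPM and 116.3 to 143.0 TPM, with 1 of 4 tested called lower (THY1), and LUM had 0 counts in every library. HHEX was not called with the replicate number as a block (0.984, edgeR adjusted p = 0.0742), nor without replicate 2 or 3 of LN-521 (0.888 and 0.768) or of the mixed coating (0.953 and 0.872). Without these same 4 libraries THY1 was not called (-0.342 and -0.310, then -0.385 and -0.346). Of the markers called, OTX2 was also called in 2 of the 4 limma fits on TPM, and LIN28A, POU5F1, NANOG, TDGF1, HESX1, ZIC1, HHEX and THY1 in none that tested them. The part of these markers in the FLRT3 difference was not tested.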

How the data were processed

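Per the submitters' processing notes, reads were handled with cutadapt, STAR (2.5.2b) and RSEM (1.2.31) on build hg38. The annotation and the use of strand in counting are not given in the sources used here. The authors deposited estimated counts per Ensembl gene, of which 6.08% to 6.67% per library are not whole, and TPM values, which correct for transcript length. Symbols came from a gene name table that named 68% of the 60499 IDs. Positions and coding sequences came from GENCODE release 29 (GRCh38) and start regions from RefSeq.

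Estimated counts were rounded to whole numbers, filtered with filterByExpr (minimum count 10) and scaled by TMM. Differences between the coatings were tested by the quasi-likelihood method of edgeR (4.0.16, R 4.3.3, robust) over 17608 genes with Benjamini-Hochberg adjustment at 0.05, without a replicate block. SE is the absolute log2 fold change divided by the square root of F. Fold changes are LN-521+LN-221 over LN-521. No 2 libraries agreed within sampling noise (chi-square per degree of freedom at least 2.76). On simulated counts the median fold change from edgeR was close to the one set, but its share of false calls lay above the threshold set, so adjusted p-values may be too small. The excess was not resolved.

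The 8 genes and all lists were chosen with earlier results of these data known. Named were the 8 genes, list genes with an adjusted p-value under 0.05 (the 2 of highest mean TPM in a list without one), all pluripotent markers, other markers past the threshold, and the 5 genes nearest in profile to each called member. TENM3, LHX5, NES, CXCR4 and markers near 0 were named after their values were seen. Alternatives were other scalings and filters, DESeq2 (1.42.0), limma (3.58.1) on log2(TPM + 1) and log2(TPM + 0.1), the replicate block, and leaving out each library.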

Additional observations from a re-analysis of the deposited data

How the results depend on the processing

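FLRT3 kept its direction in all 16 alternatives, from 1.06 to 1.32 on the log2 scale, of which 1.09 to 1.29 when each of the 6 libraries was omitted in turn; this describes the wells the genes were chosen on and is no independent check. The number of the 8 genes called was 1 in every setting except limma on log2(TPM + 0.1), where it was 0 (2 at an unadjusted p-value under 0.05), and limma on log2(TPM + 1) without a filter, where it was also 0 (1 unadjusted), while edgeR and DESeq2 each called 1. The other 7 genes kept their sign and were called in no alternative that tested them. When a library was left out their log2 fold changes ranged from -0.501 to -0.00519 for FLRT1, 0.181 to 0.333 for FLRT2, 0.00368 to 0.16 for ADGRL1, 0.0441 to 0.132 for ADGRL2, -0.175 to -0.105 for ADGRL3, -0.132 to -0.0177 for UNC5B and -0.103 to -0.0344 for UNC5D. In other settings FLRT2 reached 0.586 and ADGRL3 -0.016.

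Over all genes, 718 were called without a filter (46.8% of them higher, against 55.2%), 33 with limma on log2(TPM + 1) (81.8% higher), 16 with log2(TPM + 0.1) (62.5% higher), 1 with log2(TPM + 1) without a filter, and 28 with log2(TPM + 1) after removing small and mitochondrial RNAs (75% higher), a setting chosen after seeing the data. Leaving out a library gave 194 (without LN-521+LN-221 replicate 3) to 1179 (without LN-521 replicate 1). The cause was not tested.

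With the replicate block 646 genes were called and FLRT3 stayed at 1.22. Of the 5 genes nearest to FLRT3, CYP26A1 was not called with the block (1.19, edgeR adjusted p = 0.172) or without LN-521 replicate 2 (1.21). The marker HHEX was also lost with the block (0.984, edgeR adjusted p = 0.0742). Of the named genes outside the 8 that edgeR called, the limma fits on TPM called only OTX2, FRZB, SOAT1, IRX1 and CDH9, and none of the 4 fits on TPM called CYP26A1 (adjusted p 0.0697 to 0.373). Without a filter limma called none of them, and with log2(TPM + 0.1) only SOAT1. The labels only number the wells. Deviations of same-numbered wells correlated at 0.0473, -0.0223 and 0.00902, against -0.0603 to 0.0569 for wells with different numbers. No pairing by number was visible, but 3 wells a group cannot exclude it. MACROD1 ranged from -0.162 to 0.0349 and MACROD2 from -0.114 to 0.174 when a library was left out. In all, for named genes outside the 8, fits that left out a library gave 37 lost calls, 2 reversals and 93 results on the same side, and other settings gave 68 lost calls and 143 on the same side. Depth limits FLRT1 most, with 20 to 41 counts a library.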
